A study of Homo sapiens with 4 samples.

Results

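Regions listed around 8 genes of the PAX family (PAX1, PAX2, PAX3, PAX5, PAX6, PAX7, PAX8 and PAX9) were examined in a human cell line derived from neuroblastoma, SH-SY5Y. A region was included when it shared at least 1 bp with the hg19 span of a PAX gene or with the 20 kb on either side of it. This selected 7 of the 32543 CHD5 peaks in the deposited list and 463 of the 257073 H3K27me3 regions. Regions were selected by gene position and not by score, but the gene family was chosen with earlier results of these data known. The spans are rounded to 1 kb, so distances from the 5′ end of a gene carry an error of about that size.

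The study profiled chromatin by immunoprecipitation and sequencing (ChIP-seq), with 1 library in each of 4 groups. All cells had received 10 uM retinoic acid for 8 days, which drives this line towards a neuron-like state, so there was no untreated group. The CHD5 library was a streptavidin pull-down from cells expressing FBio-CHD5, a tagged form of the chromodomain helicase CHD5. The H3K27me3 library was an antibody precipitation from the same FBio-CHD5 cells. The other libraries were a streptavidin pull-down from cells expressing Fbio-Ctrl and an input of the FBio-CHD5 cells, and no region list was used here for either. The background that the control pull-down or input would give at these genes was therefore not analysed here. CHD5 was measured through an introduced tagged protein in 1 cell line, and the labels do not say how its level compares with the native protein. With 1 library per group no value below has a replicate error, no test between groups was made, and depth is unknown because the lists hold no read counts.

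PAX genes encode transcription factors that share a DNA-binding paired domain and direct the formation of organs and cell lineages in the embryo. They are classic targets of Polycomb repression: in cells that do not use a given PAX gene, the Polycomb repressive complex places trimethylation on lysine 27 of histone H3 (H3K27me3) around its start, often over a broad domain. CHD5 is a nucleosome remodeller of the NuRD type that is expressed mainly in neural tissue, and its chromodomains have been reported to bind H3K27me3. Neuroblastoma arises from the sympathoadrenal branch of the neural crest, a lineage in whose early steps PAX3 and PAX7 act. RNA was not measured in this series, so the state of transcription of these genes is unknown.

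H3K27me3 was listed at all 8 PAX loci examined, which do not include PAX4, and CHD5 at 3 of them. The 3 loci with CHD5 were PAX2 with 4 peaks, PAX7 with 2 and PAX5 with 1. Across the genome 47.5% of fixed 100-kb tiles held a CHD5 peak and 37.5% held an H3K27me3 region, while 11.8% held both. PAX loci, which ran from 51.0 to 242 kb, held both at those same 3 genes. Of tiles as long as each locus, a CHD5 peak was held by 52.6% for PAX2, 66.5% for PAX5 and 57.8% for PAX7. For the loci without CHD5 it was 32.9% for PAX1, 36.9% for PAX9, 40.7% for PAX6, 48.4% for PAX8 and 55.1% for PAX3. A stretch of such a length without a CHD5 peak is therefore common. Together the loci covered 957 kb and held 7.31 CHD5 peaks and 483.8 H3K27me3 regions per Mb. Over the whole lists the density was 10.5 per Mb for CHD5 and 83.1 per Mb for H3K27me3. In these loci CHD5 was listed somewhat below its general density, and H3K27me3 was several-fold denser than in its list. The CHD5 density rests on 7 peaks, 4 of them at PAX2, and whether it differs from the list beyond counting error was not tested. It also depends on the flank chosen. Flanks of 50 kb gave 16 CHD5 peaks, and the sequence they added held 18.8 per Mb, above the density of the list. The RefSeq table was used at this step for names and neighbours only. It also places SLC25A21 beside PAX9, PSD4 beside PAX8, RNF228 beside PAX3 and ELP4 beside PAX6. Among further genes it lists within the loci are LINC01726 at PAX1, CCDC140 at PAX3, MIR4475 at PAX5 and PAX8-AS1 at PAX8. Regions in those loci may therefore lie in another gene. The tiles include gene-poor sequence, and starts of genes in general were not compared, since no annotation of hg19 was used here.

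**Figure D1:**
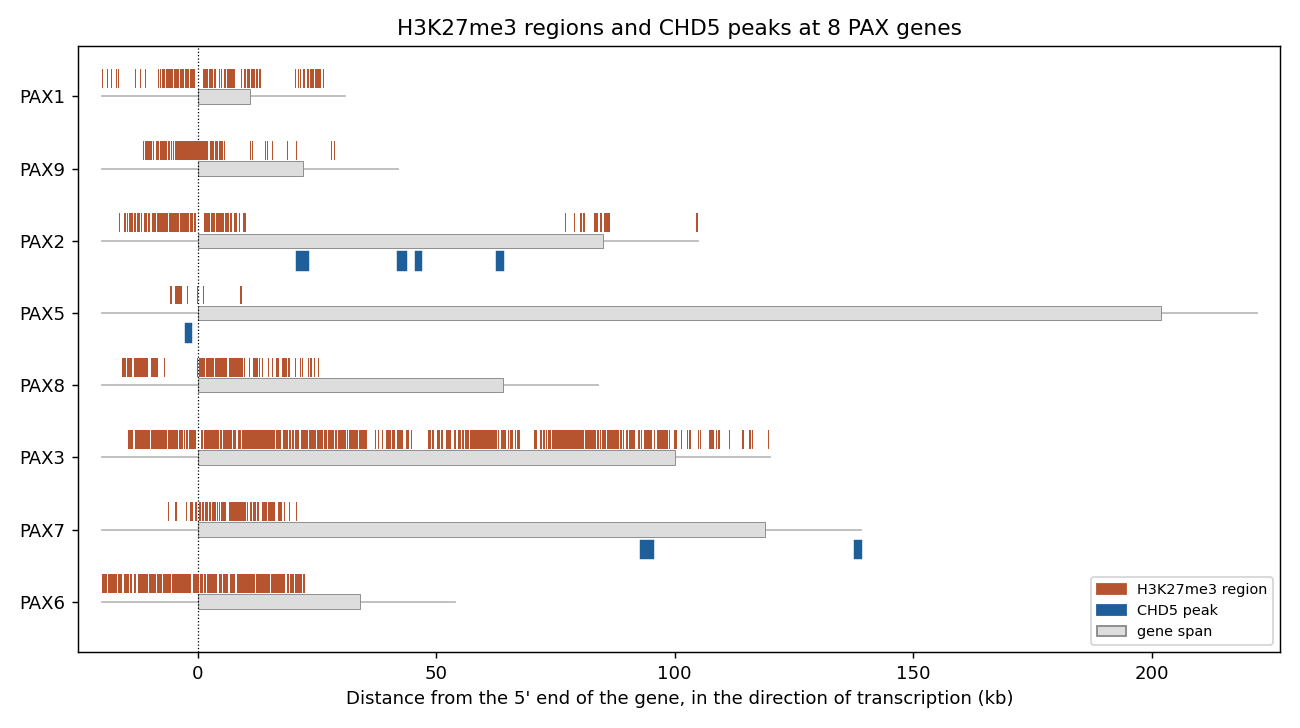
H3K27me3 regions (above each line) and CHD5 peaks (below it) at the 8 PAX genes, drawn to scale against the distance in kb from the 5′ end of the gene in the direction of transcription. Grey boxes are the gene spans, and lines extend 20 kb beyond them. H3K27me3 lies across or beside each 5′ end, and the 7 CHD5 peaks lie at PAX2, PAX5 and PAX7.

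H3K27me3 sat at or close to the 5′ end of each of the 8 PAX genes examined. No single region covered the 5′ end at PAX1, PAX2 or PAX7, where the nearest lay 638, 309 and 160 bp away. These distances are smaller than the rounding of the spans. Regions with no more than 3 kb between them were treated as one domain, and by that measure all 8 genes had their 5′ end inside a domain. At PAX8 the domain edge was 0.051 kb from the 5′ end, which is within the rounding of the span. In a 10-kb window centred on the 5′ end, cover by H3K27me3 regions was at least 50% at 5 genes, against 1.49% of fixed 10-kb tiles. Any H3K27me3 at all was present in 16.3% of tiles and in the window of each of the 8 genes. Cover of the window was highest at PAX9 with 91.4%, then 82.6% at PAX3 and 81.6% at PAX6. PAX2 had 66.4%, PAX1 63.6%, PAX7 47.6% and PAX8 41.9%. PAX5 was lowest with 21.8%, a level reached by 4.60% of tiles.

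Outermost promoters are shown for the 3 genes with the fullest cover at the 5′ end and for PAX5, the gene with the least, so that base composition can be seen beside the mark. Each run is the 250 bases before the outermost RefSeq start, written 5′ to 3′ on the strand of the gene, with CG in capitals to mark CpG dinucleotides. Their build is GRCh38.p14, whereas the region lists are hg19, so they identify the promoters and are not placed on the lists.
PAX9 (GRCh38.p14, chr14:36657318-36657567, plus strand): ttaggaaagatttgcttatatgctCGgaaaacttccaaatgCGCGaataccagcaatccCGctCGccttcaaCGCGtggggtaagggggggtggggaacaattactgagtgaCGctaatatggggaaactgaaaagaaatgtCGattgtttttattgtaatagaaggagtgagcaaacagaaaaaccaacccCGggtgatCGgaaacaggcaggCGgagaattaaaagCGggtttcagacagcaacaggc
PAX3 (GRCh38.p14, chr2:222298999-222299248, minus strand): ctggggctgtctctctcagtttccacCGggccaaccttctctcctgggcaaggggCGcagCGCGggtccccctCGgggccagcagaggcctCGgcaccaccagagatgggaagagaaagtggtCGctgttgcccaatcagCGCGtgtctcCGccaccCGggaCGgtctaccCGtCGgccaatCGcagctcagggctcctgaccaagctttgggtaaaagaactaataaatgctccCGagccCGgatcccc
PAX6 (GRCh38.p14, chr11:31817962-31818211, minus strand): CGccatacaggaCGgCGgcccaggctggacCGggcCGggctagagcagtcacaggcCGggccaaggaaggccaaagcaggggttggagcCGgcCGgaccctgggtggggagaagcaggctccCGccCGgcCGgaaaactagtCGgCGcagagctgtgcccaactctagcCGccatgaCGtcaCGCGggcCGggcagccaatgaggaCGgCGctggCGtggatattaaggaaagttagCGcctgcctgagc
PAX5 (GRCh38.p14, chr9:37034269-37034518, minus strand): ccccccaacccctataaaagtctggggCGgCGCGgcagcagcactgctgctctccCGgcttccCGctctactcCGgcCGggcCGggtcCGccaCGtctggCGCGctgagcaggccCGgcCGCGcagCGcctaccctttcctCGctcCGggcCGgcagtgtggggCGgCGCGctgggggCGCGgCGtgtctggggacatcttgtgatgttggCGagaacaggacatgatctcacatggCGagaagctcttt

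CpG-rich promoters are the usual starting points of Polycomb domains in mammals, so their base composition was compared with promoters at large. RefSeq promoters were matched for 7 of the 8 genes, PAX1 having no entry. The outermost starts of these 7 genes had a median GC content of 61.6% and a median CpG observed/expected ratio of 0.764, against 57.6% and 0.554 over the outermost starts of 27305 genes. A ratio above 0.6 together with GC above 50% was met by 4 of the 7 (PAX3, PAX5, PAX6 and PAX7) and by 44.5% of those starts. The outermost PAX2 promoter (GRCh38.p14, chr10:100735146-100735395) lies well upstream of the other PAX2 promoter listed (chr10:100745332-100745581). Which of them matches the hg19 5′ end was not checked, and neither met both limits. Over all 17 listed starts of the 7 genes the median ratio was 0.620 and 8 passed, or 47.1%, near the 44.8% of all 35116 promoters. PAX9, with the fullest H3K27me3 cover, had 13 CpGs and a ratio of 1.00 but a GC content of 46.8%. PAX5, with the least cover, had 27 CpGs, a ratio of 0.892 and a GC content of 69.6%, the highest GC content and CpG count of the 7. PAX6 and PAX3, the next in cover after PAX9, had GC contents of 68.4% and 64%. The outermost starts of PAX2, PAX7 and PAX8, with less cover, had 61.6%, 54.8% and 61.6%.

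Beyond the 5′ end the loci differed widely. Over the whole locus, H3K27me3 covered 64.03% at PAX3 and 1.20% at PAX5, with a median of 23.1% over the 8 loci, while the list covers 2.82% of the genome. PAX6 had 45.95%, PAX1 39.4%, PAX9 26.5%, PAX8 19.7%, PAX2 18.1% and PAX7 9.60%. Among tiles of the same length as each locus, cover at least as high was found in 0.175% for PAX3, 0.959% for PAX6 and 1.65% for PAX1. It was found in 3.32% for PAX9, 4.69% for PAX8, 5.21% for PAX2 and 9.61% for PAX7. For PAX5 it was found in 25.3%, so cover of the whole PAX5 locus was unremarkable although its 5′ end was marked.

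**Figure D2:**
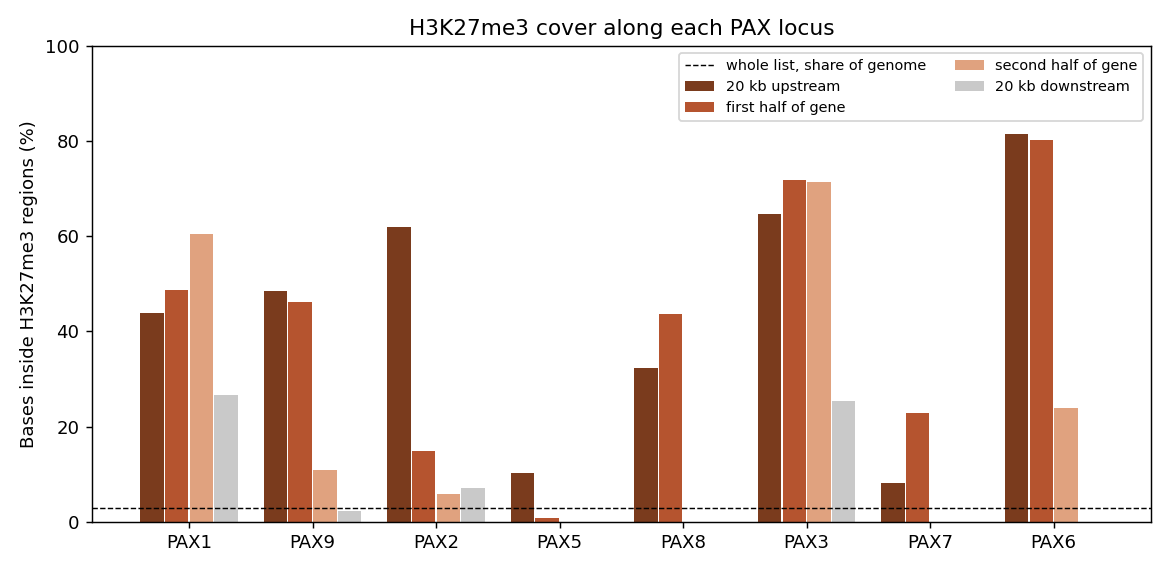
Percent of bases inside H3K27me3 regions (y axis) in the 20 kb upstream, the 5′ and 3′ sides of the gene on either side of its midpoint, and the 20 kb downstream, for each PAX gene. The dashed line is the share of the genome covered by the whole list, 2.82%. Cover is greater on the 5′ side than on the 3′ side in 7 of 8 genes.

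In most PAX genes the mark faded along the transcript. Cover was higher between the 5′ end and the midpoint of the gene than between the midpoint and the 3′ end in 7 of 8 genes, with medians of 44.9% and 8.35%. The 20 kb upstream had a median of 46.2% and the 20 kb downstream 1.14%. PAX1 was the exception, with 48.7% on the 5′ side and 60.4% on the 3′ side of a gene 11 kb long. PAX3 was evenly covered, with 71.9% and 71.4%. The 20 kb on either side of the 5′ end held between 80.2% and 99.01% of the H3K27me3 bases of the locus at 7 genes and 33.2% at PAX3. That window is 78.4% of the short PAX1 locus and 64.5% of that of PAX9, so the 80.2% at PAX1 shows little concentration, while it is 25.2% of the PAX7 locus and 16.5% of that of PAX5. At PAX3 it is 28.6% of the locus, close to the share of the mark.

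PAX1 and PAX9 are close paralogs that pattern the pharyngeal pouches, with PAX1 needed for the vertebral column and PAX9 for teeth. Neither locus held a CHD5 peak, and the nearest lay 347 kb from PAX1 and 388 kb from PAX9. PAX1 lay wholly inside a domain of 39.03 kb (chr20:21660371-21699398, 54 regions) that began 25.6 kb upstream and ended 13.4 kb after the 5′ end, and a second domain of 6.02 kb began 7.01 kb further on. The highest score among its 59 regions was 692, at the 97.9th percentile of the list, and only PAX5 had a lower highest score among the 8 loci.

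PAX9 carried the highest-scoring H3K27me3 region of all 463, with a score of 2571 at the 99.8th percentile of the list. That region was also the widest, at 3408 bp (chr14:37121186-37124593), and ended 1.41 kb upstream of the 5′ end. Its domain spanned 18.1 kb (chr14:37113657-37131801) with 80.4% of its bases inside regions. A few small domains of 2.12 to 5.05 kb followed within and after the gene, and their highest scores were 58.2 to 83.3, all below the median of the list.

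PAX2, PAX5 and PAX8 form the second paralog group, and act in the kidney and the midbrain-hindbrain boundary (PAX2), B lymphocytes (PAX5) and the thyroid (PAX8). PAX2 carried 4 of the 7 CHD5 peaks, all inside the gene and none touching H3K27me3. The strongest lay 41.8 to 43.8 kb from the 5′ end (chr10:102546798-102548774) with a score of 327, at the 86.6th percentile of the CHD5 list. The others scored 194 (chr10:102525644-102528061), 79.3 (chr10:102550667-102551858) and 205 (chr10:102567467-102568927). These peaks lay in a stretch free of H3K27me3 between a domain at each end of the gene. The 5′ domain spanned 32.5 kb (chr10:102482544-102515081) and ended 10.1 kb into the gene, and the 3′ domain spanned 9.35 kb (chr10:102582013-102591363). Between them were 66.9 kb without a listed H3K27me3 region, and the CHD5 peaks lay 10.6 to 31.7 kb from the nearest one. Of tiles as long as the PAX2 locus, 12.1% held at least 4 CHD5 peaks.

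The only CHD5 peak at a PAX gene that overlapped H3K27me3 was at PAX5. It lay 1.39 to 2.57 kb upstream of the 5′ end (chr9:37036386-37037571), was 1186 bp wide and shared 179 bp, or 15.1% of its width, with an H3K27me3 region. The peak scored 83.4, at the 32.0th percentile of the CHD5 list. The H3K27me3 region it overlapped was 179 bp wide and scored 54.8, at the 13.4th percentile of its own list. Both thus ranked low in their lists. The surrounding H3K27me3 domain was small, 7.06 kb (chr9:37033612-37040675), with 34.2% of its bases inside 9 regions. PAX5 had 12 H3K27me3 regions in all, with a median score of 68.4 and a highest score of 253. These were the lowest of the 8 loci in number, median and highest score. The 202 kb of the gene itself were 0.429% covered.

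One overlapping peak of 7 is a share of 14.3% with an exact (Clopper-Pearson) 95% interval of 0.361% to 57.9%, which covers counting error only. In the whole list 2.19% of CHD5 peaks overlapped H3K27me3, which is inside that interval. The interval takes the peaks as independent, but 4 of the 7 lay in PAX2 and 2 at PAX7. A count this small does not allow the PAX genes to be set apart from the list.

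PAX8 held no CHD5 peak and 2 H3K27me3 domains. The wider, 25.4 kb (chr2:114011644-114037051), ran from the 5′ end into the gene, and the other, 9.07 kb (chr2:114043771-114052839), began 6.77 kb upstream. The 3′ side of PAX8 beyond the midpoint and the 20 kb downstream were free of listed regions. Its highest-scoring region, with 1370, was in the upstream domain.

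PAX3 and PAX7 act in the dorsal neural tube, the neural crest and muscle progenitors. These paralogs stood far apart here. PAX3 had 169 of the 463 H3K27me3 regions and 89.6 kb of covered bases. They belonged to 3 domains of 16.8, 68.2 and 59.9 kb separated by gaps of 3.13 and 3.04 kb. The 16.8-kb domain, with 25 regions, lay almost wholly beyond the 20-kb flank downstream, so most of its regions are not among the 169. With gaps of up to 5 kb joined, PAX3 lay in a single domain of 157 kb (chr2:223021478-223178626) with 197 regions that extended beyond both ends of the gene. The highest-scoring PAX3 region (chr2:223159849-223162660) lay 1.34 to 4.15 kb inside the gene with a score of 2247. No CHD5 peak was in the PAX3 locus, and the nearest began 6.06 kb outside the upstream edge of the domain.

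PAX7 had 32 H3K27me3 regions, all in 1 domain of 26.9 kb (chr1:18950825-18977756) from 6.18 kb upstream to 20.8 kb inside the gene. From there to 20 kb beyond its 3′ end none was listed. Its CHD5 peaks lay at the far end: one inside the gene, 92.8 to 95.6 kb from the 5′ end (chr1:19049789-19052551), scored 343, the highest of the 7. The other lay 18.5 kb beyond the 3′ end (chr1:19094544-19097028) and scored 110. They were 72.03 and 61.9 kb from the nearest H3K27me3 region. Of tiles as long as the PAX7 locus, 39.3% held at least 2 CHD5 peaks, so this number was ordinary.

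PAX6, the regulator of eye and forebrain development, held no CHD5 peak, and the nearest was 150 kb away. One domain of 49.03 kb (chr11:31817487-31866520) covered its 5′ side and continued 26.5 kb upstream, with 77.1% of its bases inside 68 regions. RefSeq also lists the noncoding genes PAX6-AS1 and PAUPAR here, and the mark cannot be assigned to one of them. The highest-scoring region, with 2377, lay 9.54 to 11.9 kb inside the gene, and no region was listed beyond 22.5 kb from the 5′ end. PAX6 had the highest median score of the 8 loci, 247.

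**Figure D3:**
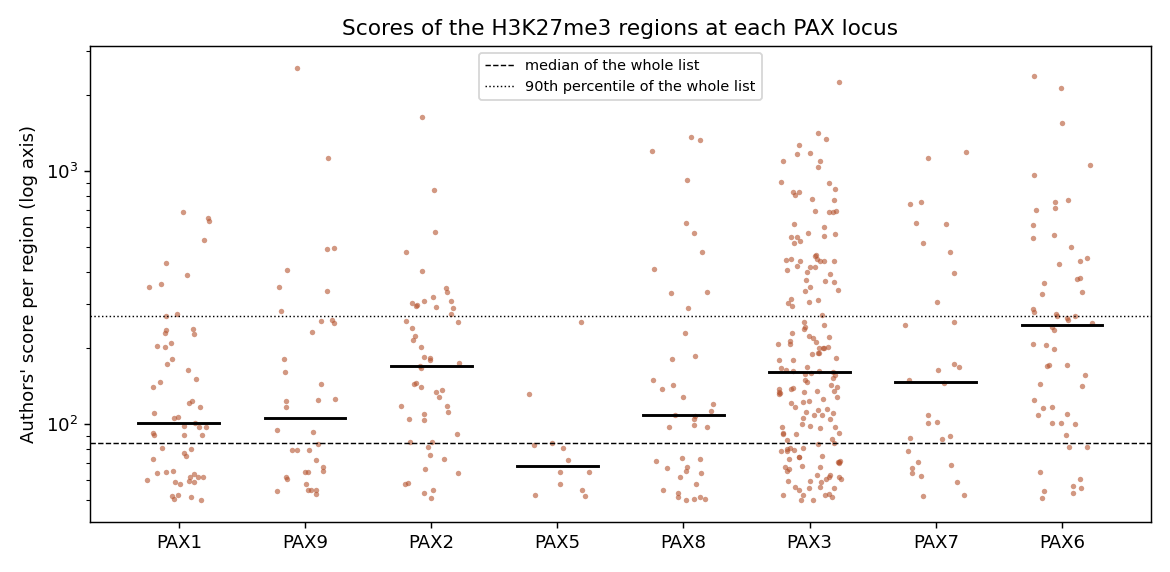
The authors' score of each H3K27me3 region (log axis, one point per region) at the 8 PAX loci, with the median of each locus as a bar. Dashed and dotted lines give the median (84.6) and 90th percentile (268) of the whole list. The medians of 7 loci lie above the list median, and that of PAX5 lies below it.

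H3K27me3 regions at PAX genes ranked high in their list. The 463 regions had a median score of 143 against 84.6 in the whole list, and 136 of them, or 29.4%, exceeded the 90th percentile of the list. Their median width was 324 bp, compared with 238 bp in the list, and wider regions score higher. By locus the median score was 101 at PAX1, 106 at PAX9, 109 at PAX8, 147 at PAX7, 161 at PAX3, 170 at PAX2 and 247 at PAX6, and 68.4 at PAX5. Regions of 1 locus adjoin each other and are not replicates. Of the 136 high-scoring regions 101 lay within 20 kb of a 5′ end, and of the other 35, 32 were at PAX3. That is 74.3%, beside 64.6% of all 463 regions. Of the 19 PAX domains 7, or 36.8%, were at least 20 kb wide, against 5.5% of the 38537 domains of the list. A window meets a wide domain more readily than a narrow one, which can raise the PAX share.

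The 7 CHD5 peaks were of common size for their list. Their scores ran from 79.3 to 343 with a median of 194, against a median of 117 and a 90th percentile of 385 for all CHD5 peaks. Their widths ran from 1186 to 2763 bp with a median of 1977 bp, against 1647 bp. Of the 7 peaks 5 were within 50 kb of an H3K27me3 region, against 21.6% of the list. The peaks were taken at loci that each held the mark, so this nearness is partly set by the selection. Of those 5, 4 were in the single gene PAX2.

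CHD5 peaks were denser just outside the 20-kb limit, at 18.8 per Mb, than inside it, at 7.31, while the whole list had 10.5. The densities outside and inside rest on 9 and 7 peaks, and whether they differ beyond counting error was not tested. The outermost peak inside the limit was that 18.5 kb beyond PAX7, and the first outside was 20.7 kb upstream of PAX3. Between 20 and 50 kb lay 9 further peaks: 3 upstream of PAX3, 2 at PAX5, 2 at PAX7, 1 at PAX2 and 1 at PAX8. The strongest, with a score of 453 (chr2:223194320-223197453), was one of the 3 upstream of PAX3, which lay 6.06, 15.7 and 22.1 kb from the nearest H3K27me3 region. The peak upstream of PAX8 (chr2:114082496-114083421, score 71.3) was 2.76 kb from one. None of the 9 overlapped H3K27me3.

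**Figure D4:**
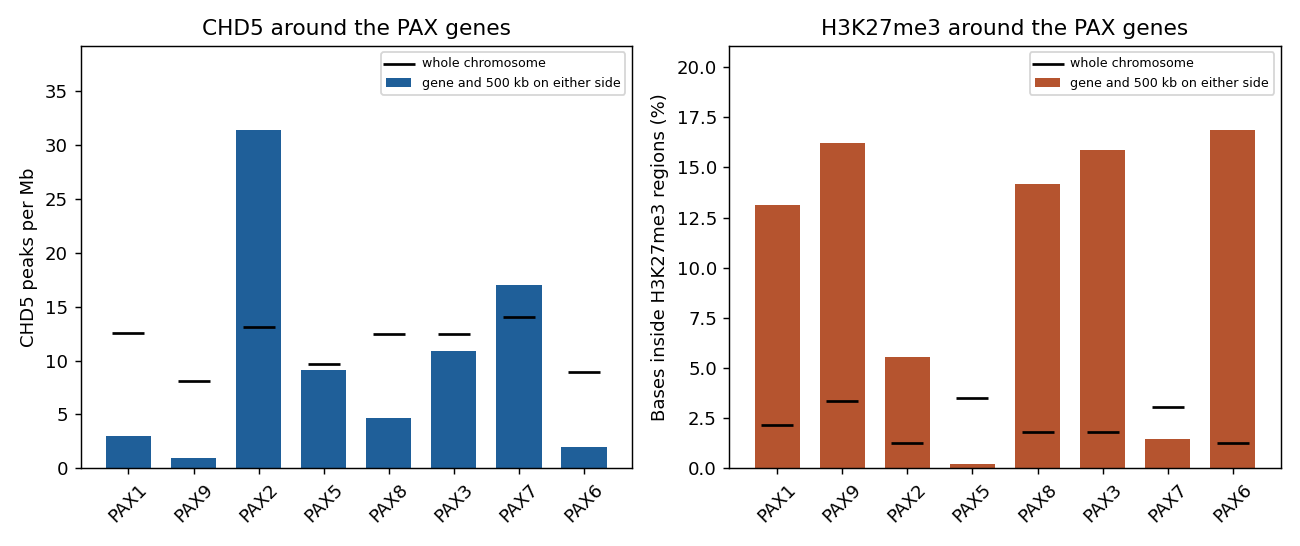
CHD5 peaks per Mb (left) and percent of bases inside H3K27me3 regions (right) in each PAX gene with 500 kb on either side (bars), beside the value of the whole chromosome (black marks). CHD5 exceeds its chromosome at PAX2 and PAX7, and H3K27me3 falls below its chromosome at PAX5 and PAX7.

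The wider neighbourhoods differed between the genes. Within 500 kb of PAX1, PAX6 and PAX9, H3K27me3 was plentiful and CHD5 sparse. PAX6 had 2 CHD5 peaks, or 1.93 per Mb against 8.92 on chromosome 11, and 16.8% H3K27me3 cover against 1.26%. PAX9 had 1 peak, or 0.978 per Mb against 8.07 on chromosome 14, and 16.2% cover against 3.36%. PAX1 had 3 peaks, or 2.97 per Mb against 12.6 on chromosome 20, and 13.1% cover against 2.17%. In the RefSeq table the protein-coding neighbours were NKX2-2 and FOXA2 for PAX1, NKX2-8 and MIPOL1 for PAX9, and RCN1 and IMMP1L for PAX6. Of these, NKX2-2, FOXA2 and NKX2-8 are other developmental regulators. Distances to the neighbours were not measured, so some may lie beyond 500 kb, and any link to the cover was not tested.

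PAX2 lay in a neighbourhood rich in CHD5, with 34 peaks or 31.3 per Mb against 13.1 on chromosome 10, and 5.57% H3K27me3 cover against 1.24%. PAX7 had 19 peaks, or 17.0 per Mb against 14.1 on chromosome 1. PAX7 and PAX5 stood nearly alone as marked sites in their neighbourhoods: within 500 kb, PAX7 had 38 H3K27me3 regions of which 32 were at the gene, and PAX5 had 12, all at the gene. H3K27me3 cover there was 1.48% at PAX7 and 0.242% at PAX5, below the 3.07% and 3.50% of their chromosomes. PAX5 had 11 CHD5 peaks, or 9.15 per Mb, close to the 9.69 of chromosome 9. PAX8 and PAX3, both on chromosome 2, had 4.70 and 10.9 CHD5 peaks per Mb against 12.5, and 14.2% and 15.9% H3K27me3 cover against 1.79%. Across the 8 neighbourhoods the Spearman rho between CHD5 peaks per Mb and H3K27me3 cover was -0.67, a description of 8 loci that share the same 2 libraries.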

How the data were processed

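The files used were lists of enriched regions for the CHD5 pull-down and the H3K27me3 precipitation, 1 library each. Per the file headers, MACS called both. The submitters' processing notes give hg19 as the build. Each region carries a score deposited by the authors, whose scale is not stated and whose smallest value is 50 in both lists, so it was used only to describe and rank regions within its list. Not given in the sources used here are the aligner, the MACS version and threshold, and the library MACS took as background. A caller built for narrow peaks can split a broad mark into many short regions, and the cover given here leaves out the gaps between them.

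Gene spans were given to 1 kb and extended by 20 kb. Whether they had been rounded outward or to the nearest kb was not checked. The members and lists were chosen with earlier results of these data known. All 8 genes were named, and in each locus the CHD5 peak with the highest score, each CHD5 peak overlapping H3K27me3 and the widest domain. The strand of each gene came from the RefSeq promoter table, except that of PAX1, which has no entry and was taken as plus from general knowledge. Overlap meant at least 1 bp, and domains joined H3K27me3 regions across gaps of up to 3 kb. Tiles of fixed length ran along chromosomes 1 to 22 and X up to the last listed region, assembly gaps included. Counts were checked with bedtools 2.31.1, and the interval routines were tested on simulated data. Scripts ran in Python 3.11.15 with scipy 1.17.1 for intervals, numpy 2.4.6 and pandas 2.3.3, and figures were drawn with matplotlib 3.10.9. Alternatives covered the flank, the score limit, the overlap that counts and the joining of regions.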

Additional observations from a re-analysis of the deposited data

How the results depend on the processing

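All counts rest on 1 library per list, and the depth of neither is known. The number of CHD5 peaks, 7, was 16 with flanks of 50 kb and 4 with scores at or above the median of the list. The number of H3K27me3 regions, 463, was 284 in the gene spans alone, 19 when joined across 3 kb and 14 when joined across 5 kb. The overlapping CHD5 peak, 1, became 0 in the gene spans alone, 0 with scores at or above the median and 0 when at least 50% of the peak had to be covered. Loci with both, 3, were 5 with flanks of 50 kb and 1 when a CHD5 peak had to lie within 1 kb of a region. The median cover of 23.1% was 25.2% in the gene spans alone, 27.2% with flanks of 10 kb, 14.8% with flanks of 50 kb and 19.3% with scores at or above the median. It was 32.1%, 40.1% and 45.3% with regions joined across 1, 3 and 5 kb. These values move because the alternatives count other windows or regions. Of the 22 alternatives to the counts, the remaining 12 stayed within 1.5 times the value reported, and all 7 alternatives to the median cover are given here whatever their size. Joining across 5 kb was chosen after the data were examined. No paired analysis was possible because each group has 1 library.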

Other observations

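Score and width of H3K27me3 regions go together, so the PAX regions were also compared with the list within classes of width, chosen after the data were examined. In each of the 5 classes the median score at the PAX genes was above that of the list. Among regions of 200 to 300 bp it was 105 for 103 PAX regions against 85.7 for 73726 regions of the list, and among those of 500 to 1000 bp it was 371 for 101 against 282 for 27626. The narrowest class, under 200 bp, differed least, with 61.1 for 112 against 58.8. Regions of at least 1 kb made up 9.72% of the PAX regions and 3.43% of the list, with medians of 908 and 744. Regions of 1 locus are not independent, so these are descriptions with no test.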
